A study of Arabidopsis thaliana with 16 samples.

Results

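Transcripts of 3 MYC transcription factor genes and 5 genes used as readouts of jasmonate signalling were followed across 16 libraries of poly(A) RNA from whole Arabidopsis thaliana seedlings. The 8 genes were taken by locus identifier from a table of 32833 genes. They were MYC2 (AT1G32640), MYC3 (AT5G46760), MYC4 (AT4G17880), VSP1 (AT5G24780), VSP2 (AT5G24770), CORI3 (AT4G23600), PDF1.2 (AT5G44420) and THI2.1 (AT1G72260). Of the 8 genes, 7 had at least 1 count, and MYC2 had none in any library. The plants were the wild type Col-0 and the mutant seu-6, whose gene SEUSS (SEU) codes for a co-regulator of transcription. The salt experiment used seedlings 14 days old, held for 15 min in liquid medium of half-strength MS, either with 300 mM NaCl or without it (mock). The sorbitol experiment used seedlings 10 days old, held for 6 h in the same kind of medium with or without 250 mM sorbitol. Each of the 8 groups of genotype, treatment and time had 2 libraries, which the labels call biological replicates. No jasmonate was given to any group, so the genes were read under salt and osmotic treatment and in liquid medium alone. The labels give no group sampled before the liquid medium. Rises and falls with a treatment are therefore differences from the mock of the same experiment, not changes over time.

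Jasmonates are lipid-derived hormones of wounding, insect attack and necrotrophic pathogens. In the resting state JAZ proteins bind MYC2, MYC3 and MYC4 and keep them inactive; the conjugate of jasmonate with isoleucine joins JAZ to the receptor COI1, JAZ is degraded, and the MYC factors activate their targets. The output divides into a MYC branch, read by VSP1, VSP2 and CORI3, and a branch shared with ethylene that runs through ERF1 and ORA59 and is read by PDF1.2 and THI2.1, and in Arabidopsis the MYC factors are known to hold the second branch back.

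The stretches upstream of these genes differed in the short motifs that the factors of both branches are known to bind. Windows of 250 bases before each annotated start were read from RefSeq's TAIR10.1 assembly and searched on both strands for the G-box CACGTG, its variant CACATG, the T/G-box AACGTG and the GCC-box GCCGCC. The T/G-box was added after the sequences had been seen. No position can match more than one of them. PDF1.2 held the GCC-box beginning 222 bases before its start, directly beside the CACATG variant at 216 bases and with a T/G-box at 44 bases. VSP1 held a T/G-box at 170 bases, and VSP2, its close relative nearby on the same chromosome, held none of the 4 motifs. These 3 windows are shown as examples that hold or lack the motifs, and a link between motifs and levels was not tested. Matches are in capitals, and each window runs 5′ to 3′ on the minus strand.
PDF1.2, chr5:17907639-17907888: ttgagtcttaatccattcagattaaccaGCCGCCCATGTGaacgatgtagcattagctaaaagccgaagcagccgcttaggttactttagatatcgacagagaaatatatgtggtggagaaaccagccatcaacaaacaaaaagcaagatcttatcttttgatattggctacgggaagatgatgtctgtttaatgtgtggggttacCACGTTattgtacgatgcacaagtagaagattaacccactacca
VSP1, chr5:8509202-8509451: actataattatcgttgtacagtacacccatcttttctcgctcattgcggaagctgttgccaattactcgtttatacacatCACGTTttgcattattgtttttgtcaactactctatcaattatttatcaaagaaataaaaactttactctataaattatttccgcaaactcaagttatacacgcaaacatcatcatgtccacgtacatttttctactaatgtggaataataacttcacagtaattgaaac
VSP2, chr5:8502225-8502474: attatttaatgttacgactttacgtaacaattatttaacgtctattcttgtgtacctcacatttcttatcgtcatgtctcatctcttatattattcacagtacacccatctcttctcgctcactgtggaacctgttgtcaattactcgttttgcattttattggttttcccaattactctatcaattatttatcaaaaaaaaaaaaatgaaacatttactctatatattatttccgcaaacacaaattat

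Among the other members a T/G-box was found upstream of MYC2 at 115 bases and of THI2.1 at 73 bases, while the windows of MYC3, MYC4 and CORI3 held none of the 4 motifs. Across the 27443 upstream windows of protein-coding genes of the same length, 6.49% held the G-box, 11.09% the CACATG variant, 7.54% the T/G-box and 1.87% the GCC-box. A match is a run of letters and not a measured binding site, and its absence from these 250 bases says nothing about the rest of the promoter.

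Depth was even across the series, with gene counts per library between 39756463 and 42676953. A count of 0 in a library allows at most 3 counts, between 0.0661 and 0.0812 CPM (counts of a gene scaled by library size), where floors and intervals cover counting error only. SEU, the mutated gene, was lower in seu-6 in all 4 media, by between 44.1-fold and 106-fold, although 33.26% of its exon bases lie under a gene on the opposite strand. Root and leaf markers were found in every group, and the summed level of 5 flower markers lay between 3.75 and 12.8 CPM. The sum of 8 root markers moved with NaCl, from between 128.7 and 134 CPM in the Col-0 mock to between 61.94 and 65.36 CPM, and in seu-6 from between 98.94 and 102 CPM to between 37.88 and 39.61 CPM. The sum of 6 leaf markers was also lower with NaCl. In Col-0 it went from between 22740 and 22770 CPM to between 19000 and 19650 CPM. In seu-6 it went from between 26800 and 26930 CPM to between 23180 and 24230 CPM. The part of root and leaf markers in the NaCl values below was not tested. In whole seedlings, fewer cells of a type and less RNA per cell cannot be told apart.

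MYC2, the best known of the MYC factors, could not be read from these tables. It had 0 counts in each of the 16 libraries. Its locus lies on the minus strand at chr1:11798119-11801407, and 3241 of its 3289 exon bases (98.54%) lie under exons of AT1G32630, a gene on the opposite strand at chr1:11797330-11801359. Of the 453 genes, MYC2 included, with at least 95% of their exon bases under an opposite-strand gene, 415 (91.61%) had 0 counts in every library, against 9.54% of the 19821 genes that share no exon base. AT1G32630 itself had between 71 and 133 counts per library. HTSeq, which made the counts, by default sets aside reads that overlap more than one gene, and whether strand was used is not given in the sources used here. The 0 is therefore given as what the tables hold and not as a level of MYC2 transcript.

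**Figure D1:**
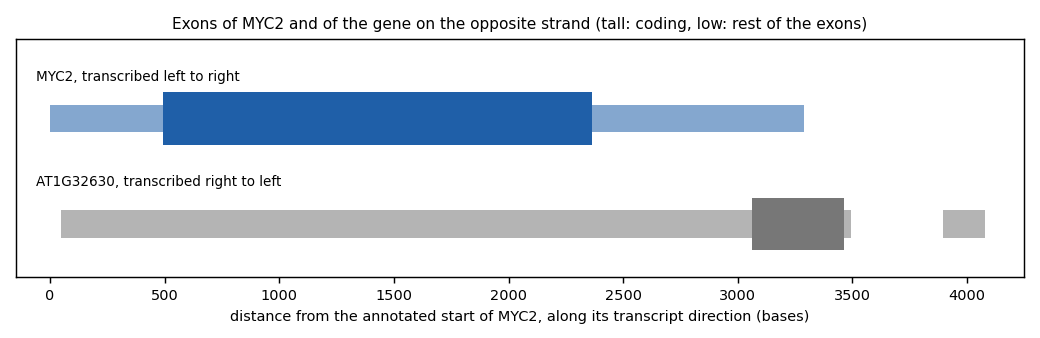
Exons of MYC2 (blue) and of AT1G32630 (grey) by distance in bases from the annotated start of MYC2, along the direction in which MYC2 is transcribed, with coding stretches drawn tall and the rest of the exons low. The exons of AT1G32630 lie over 98.54% of the exon bases of MYC2, its whole coding stretch included.

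MYC3, a MYC factor that acts beside MYC2, passed no test in the 15 min experiment and rose with 6 h of sorbitol. Its locus is chr5:18974022-18976590 on the plus strand. In the 15 min experiment MYC3 stood at 89.5 and 82.4 CPM in the Col-0 mock, 91.2 and 93.8 in the seu-6 mock, 94.4 and 90.0 in Col-0 with NaCl, and 92.7 and 93.8 in seu-6 with NaCl. The 8 libraries spanned a narrow range, and the Col-0 mock and NaCl libraries lay close together. In the 6 h experiment MYC3 stood at 64.1 and 67.2 CPM in the Col-0 mock, 73.7 and 69.8 in the seu-6 mock, 89.5 and 85.0 in Col-0 with sorbitol, and 80.9 and 84.9 in seu-6 with sorbitol. All 4 sorbitol libraries lay above all 4 mock libraries. The group means of the genotypes exchanged order between mock and sorbitol. Under sorbitol the genotype difference, -0.07 ± 0.047, did not pass (edgeR adjusted p = 0.261). The log2 change with sorbitol was 0.42 ± 0.048 (SE) in Col-0 (edgeR adjusted p = 1.28e-11) and 0.22 ± 0.048 in seu-6 (edgeR adjusted p = 4.94e-05). Their difference of -0.20 ± 0.067 passed the test with an edgeR adjusted p of 0.0409, but not with DESeq2 (adjusted p = 0.0982), and it was lost when any of 5 of the 8 libraries was left out, with adjusted p between 0.0534 and 0.208. The higher MYC3 level of seu-6 in the 6 h mock, a log2 difference of 0.13 ± 0.048 (edgeR adjusted p = 0.0414), was lost with DESeq2 (adjusted p = 0.112), with its size factors (adjusted p = 0.0557) and on leaving out any of 6 libraries, down to 0.089 without seu-6 6 h mock replicate 1. NaCl gave MYC3 a log2 change of 0.10 ± 0.046 in Col-0 (edgeR adjusted p = 0.0792) and -0.006 ± 0.046 in seu-6 (edgeR adjusted p = 0.944), neither past the threshold. The genotype difference in the 15 min mock, 0.10 ± 0.046, did not pass either (edgeR adjusted p = 0.0956). Without Col-0 15 min mock replicate 1 the Col-0 change (0.142, adjusted p = 0.0489) and the genotype difference (0.152, adjusted p = 0.042) both passed, and without Col-0 15 min mock replicate 2 they were 0.042 and 0.044.

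MYC4, the third of the MYC factors, was the scarcer gene and was lower with sorbitol in Col-0, where MYC3 was higher; its change in seu-6 did not pass. Its locus is chr4:9933326-9935685 on the minus strand. At 6 h MYC4 stood at 20.2 and 18.3 CPM in the Col-0 mock, 15.8 and 15.8 in the seu-6 mock, 13.7 and 16.1 in Col-0 with sorbitol, and 13.8 and 13.3 in seu-6 with sorbitol. The Col-0 mock lay above every other library, and the Col-0 sorbitol libraries overlapped those of seu-6. The log2 change with sorbitol was -0.36 ± 0.095 in Col-0 (edgeR adjusted p = 0.000759), which was lost without Col-0 sorbitol replicate 1 (-0.25, adjusted p = 0.0522). In seu-6 it was -0.20 ± 0.097 (edgeR adjusted p = 0.0661), and the difference of 0.16 ± 0.14 between the genotypes' responses did not pass (edgeR adjusted p = 0.533). In the 6 h mock MYC4 was lower in seu-6 by a log2 difference of -0.29 ± 0.094 (edgeR adjusted p = 0.0133), a call lost without Col-0 6 h mock replicate 1 (-0.22, adjusted p = 0.194) or either seu-6 mock library. In the 15 min experiment MYC4 stood at 16.0 and 15.1 CPM in the Col-0 mock, 13.2 and 13.1 in the seu-6 mock, 16.3 and 17.0 in Col-0 with NaCl, and 13.8 and 15.4 in seu-6 with NaCl. The seu-6 mock lay below the Col-0 mock, with a log2 difference of -0.25 ± 0.11 that did not pass (edgeR adjusted p = 0.0901), and neither NaCl response passed. MYC3 counts per MYC4 count lay between 3.17 and 3.66 in the Col-0 6 h mock and between 5.27 and 6.52 in Col-0 with sorbitol. Per kb of exon, MYC3 stood at 33.5 CPM and MYC4 at 6.59 CPM in the Col-0 15 min mock. The coding sequences of the pair were identical at 71.1% of aligned positions and shared no stretch of 50 bases among 2520 in MYC3.

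**Figure D2:**
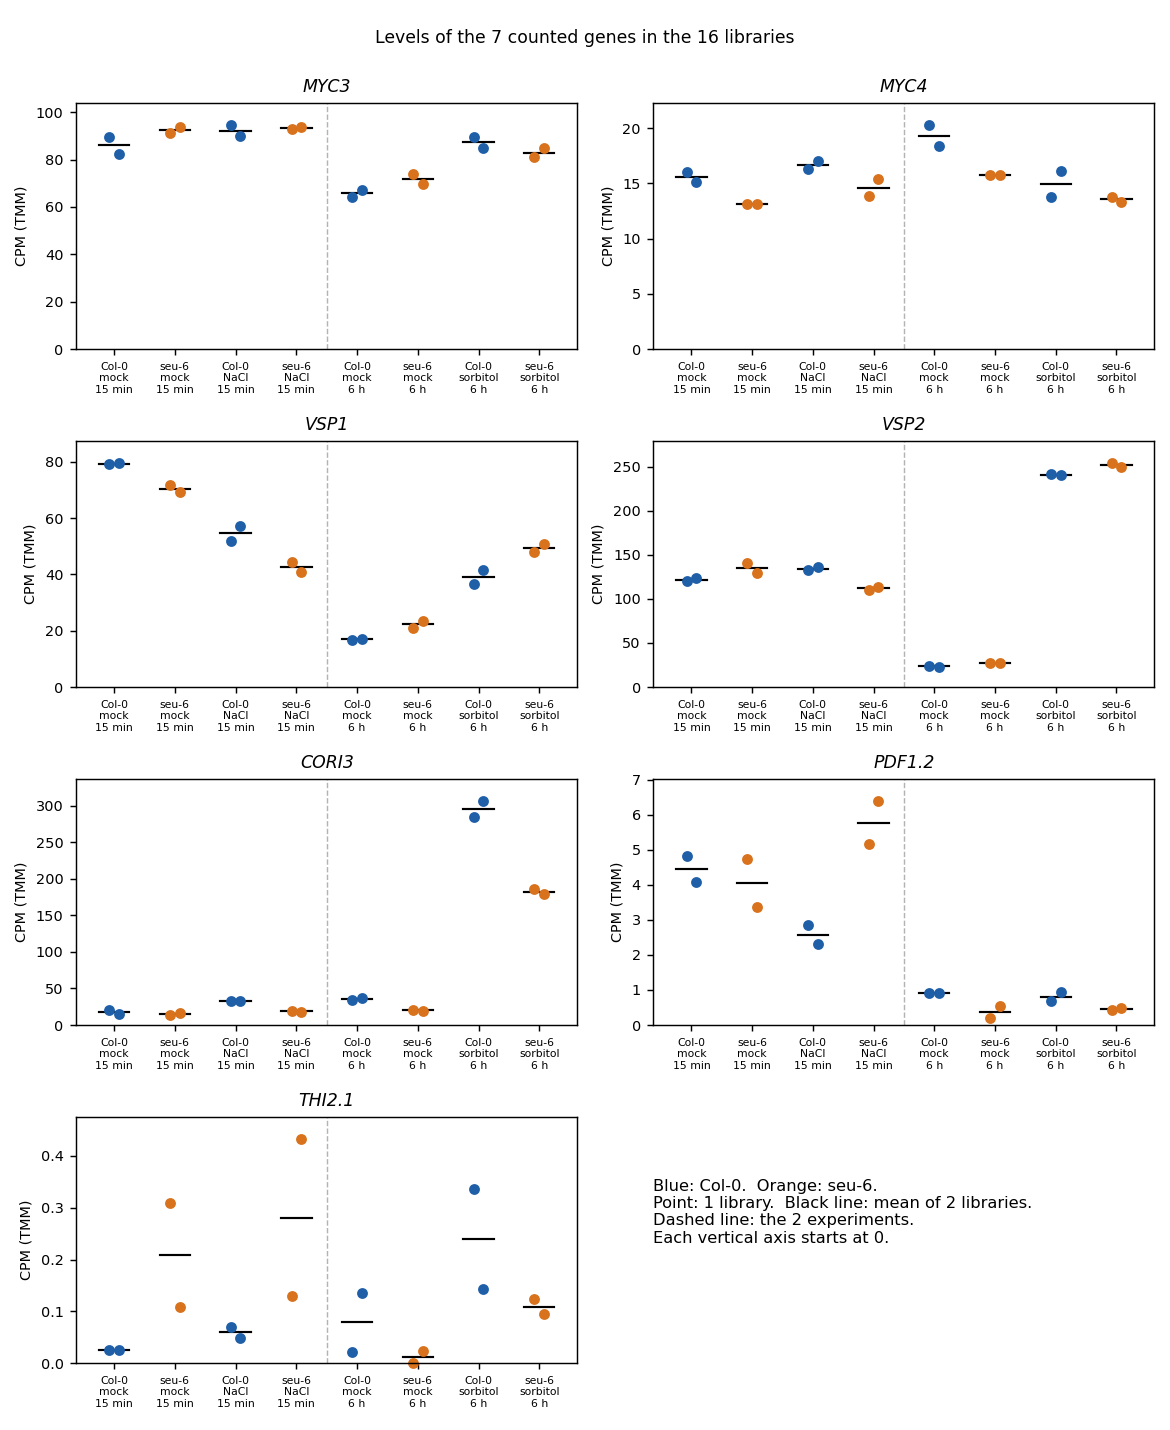
Level in CPM (TMM scaling) of the 7 counted genes by group, with 1 point per library, blue for Col-0, orange for seu-6, and a black line at the mean of 2 libraries, on vertical axes that start at 0. VSP2 and CORI3 stand highest in the 4 sorbitol libraries, VSP1 in the 4 mock libraries of 15 min, PDF1.2 is higher in every 15 min library than in any of 6 h, and THI2.1 never exceeds 0.432 CPM.

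VSP1 encodes a vegetative storage protein and lies at chr5:8507590-8509201 on the minus strand. Against the mock of the same experiment it was lower with 15 min of NaCl and higher with 6 h of sorbitol, in both genotypes. In the 15 min experiment VSP1 stood at 79.0 and 79.4 CPM in the Col-0 mock, 71.6 and 69.3 in the seu-6 mock, 52.0 and 57.2 in Col-0 with NaCl, and 44.2 and 41.0 in seu-6 with NaCl. The 4 groups did not overlap, and seu-6 was the lower in both media. The log2 change with NaCl was -0.54 ± 0.055 in Col-0 (edgeR adjusted p = 6.82e-14) and -0.74 ± 0.057 in seu-6 (edgeR adjusted p = 5.66e-20), and their difference of -0.21 ± 0.08 did not pass (edgeR adjusted p = 0.111). It passed without seu-6 NaCl replicate 1 (-0.27, adjusted p = 0.0387) and was -0.105 (adjusted p = 0.668) without Col-0 NaCl replicate 2. At 6 h VSP1 stood at 16.8 and 17.1 CPM in the Col-0 mock, 21.1 and 23.5 in the seu-6 mock, 36.7 and 41.4 in Col-0 with sorbitol, and 48.1 and 50.9 in seu-6 with sorbitol. Here too the groups did not overlap, but seu-6 was the higher in both media. Sorbitol raised VSP1 2.32-fold in Col-0 and 2.25-fold in seu-6 (edgeR adjusted p = 1.18e-22 and 2.02e-22). The genotype difference was therefore of opposite sign in the experiments. It was -0.17 ± 0.055 in the 15 min mock (edgeR adjusted p = 0.011), -0.38 ± 0.058 under NaCl (edgeR adjusted p = 5.49e-08), 0.39 ± 0.075 in the 6 h mock (edgeR adjusted p = 2.99e-05) and 0.35 ± 0.067 under sorbitol (edgeR adjusted p = 2.93e-05). The first of these was lost without Col-0 15 min mock replicate 2 (adjusted p = 0.0628) or seu-6 15 min mock replicate 2 (adjusted p = 0.128), and the difference between the experiments was not tested.

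VSP2, the other vegetative storage protein gene of the pair, at chr5:8500468-8502224 on the minus strand, had the largest sorbitol rise in Col-0 of the 6 members tested there. At 6 h VSP2 stood at 24.4 and 23.2 CPM in the Col-0 mock, 27.1 and 27.1 in the seu-6 mock, 241.4 and 240.4 in Col-0 with sorbitol, and 253.8 and 250.2 in seu-6 with sorbitol. Replicates lay within a few CPM of each other and the sorbitol libraries far above the mocks. The rise was 10.2-fold in Col-0, a log2 change of 3.35 ± 0.044 (edgeR adjusted p = 1.08e-56), and 9.4-fold in seu-6, 3.23 ± 0.044 (edgeR adjusted p = 6.06e-56), with a difference of -0.12 ± 0.062 that did not pass (edgeR adjusted p = 0.251). NaCl moved VSP2 little, with changes of opposite sign in the genotypes. It stood at 120.7 and 123.3 CPM in the Col-0 15 min mock, 141.1 and 129.0 in the seu-6 mock, 132.9 and 136.0 in Col-0 with NaCl, and 110.4 and 113.9 in seu-6 with NaCl. The seu-6 NaCl libraries lay below all others, and the Col-0 NaCl libraries lay inside the range of the seu-6 mock. The log2 change was 0.14 ± 0.04 in Col-0 (edgeR adjusted p = 0.00356) and -0.29 ± 0.041 in seu-6 (edgeR adjusted p = 9.4e-09), and the test of the difference gave -0.43 ± 0.057 (edgeR adjusted p = 9.18e-09). The rise in Col-0 was lost without Col-0 15 min mock replicate 1 (0.105, adjusted p = 0.113) or Col-0 NaCl replicate 2 (0.105, adjusted p = 0.122), whereas the difference between the genotypes kept its call with each library left out. In the mocks VSP2 was higher in seu-6, by 0.14 ± 0.041 at 15 min (edgeR adjusted p = 0.0039) and 0.18 ± 0.05 at 6 h (edgeR adjusted p = 0.00317). The 15 min value was 0.077 (adjusted p = 0.301) without seu-6 15 min mock replicate 1 and lost its call without Col-0 15 min mock replicate 1 (adjusted p = 0.0886), and the 6 h value lost its call without Col-0 6 h mock replicate 2 (adjusted p = 0.0595). Under NaCl it was lower in seu-6 by -0.28 ± 0.041 (edgeR adjusted p = 1.03e-08), and under sorbitol the 0.07 ± 0.037 did not pass (edgeR adjusted p = 0.157).

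The balance of the VSP pair moved with both treatments. VSP2 counts per VSP1 count were 1.53 and 1.55 in the Col-0 15 min mock and 2.56 and 2.38 with NaCl, and in seu-6 they were 1.97 and 1.86 in the mock and 2.49 and 2.78 with NaCl. At 6 h the ratio was 1.45 and 1.36 in the Col-0 mock and 6.57 and 5.81 with sorbitol, and in seu-6 it was 1.29 and 1.15 in the mock and 5.27 and 4.92 with sorbitol. Treated and mock libraries did not overlap in either experiment, and the genotypes overlapped under NaCl alone. The ratio itself was not tested. The coding sequences were identical at 87.8% of aligned positions, and of 1191 stretches of 50 bases in the VSP1 transcript 5 were also in that of VSP2, while of stretches of 100 bases none was. Read length is not given in the sources used here, so the division of reads between the pair is uncertain to that extent. With the counts of both genes summed before the fit, the log2 change with NaCl was -0.089 in Col-0 (adjusted p = 0.0374) and -0.43 in seu-6 (adjusted p = 1.6e-18), and the rise with sorbitol was 2.79 and 2.63. The difference between the genotypes' responses of the sum was -0.34 for NaCl (adjusted p = 9.01e-08) and -0.16 for sorbitol (adjusted p = 0.0369), and the sum was higher in seu-6 under sorbitol by 0.11 (adjusted p = 0.0104).

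**Figure D3:**
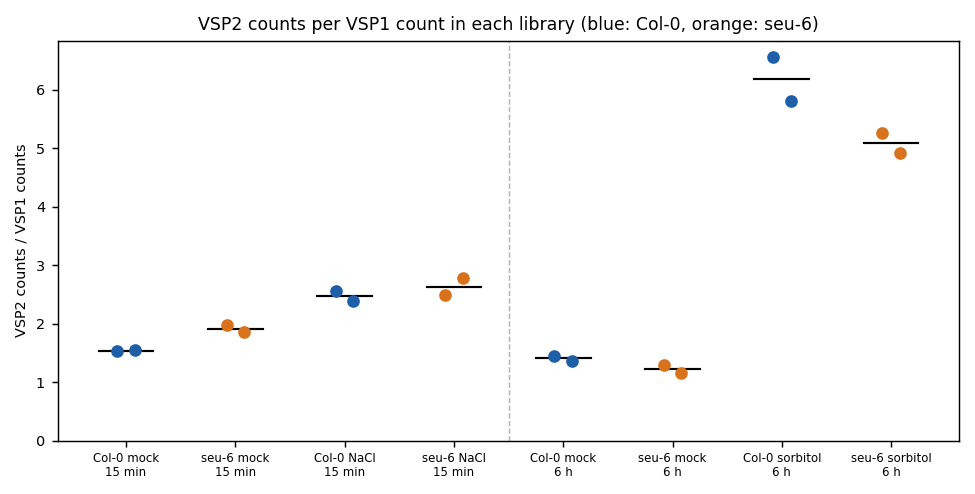
VSP2 counts divided by VSP1 counts in each library, by group, with the mean of 2 libraries as a black line. The ratio lies between 1.15 and 1.97 in the 8 mock libraries, between 2.38 and 2.78 with NaCl and between 4.92 and 6.57 with sorbitol.

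CORI3, named for its induction by the jasmonate mimic coronatine and encoding a cystine lyase, was lower in seu-6 in 3 of the 4 media and rose steeply with sorbitol. It lies at chr4:12310379-12313212 on the plus strand. In the 6 h experiment CORI3 stood at 34.5 and 37.5 CPM in the Col-0 mock, 20.0 and 19.8 in the seu-6 mock, 284.1 and 305.7 in Col-0 with sorbitol, and 185.7 and 179.0 in seu-6 with sorbitol. The genotypes did not overlap in mock or in sorbitol, and the sorbitol libraries stood far above the mocks. Its rise with sorbitol was 8.26-fold in Col-0 and 9.27-fold in seu-6 (edgeR adjusted p = 3.69e-53 and 2e-52). The difference of 0.17 ± 0.067 between these log2 changes did not pass (edgeR adjusted p = 0.0913) but did without Col-0 6 h mock replicate 1 (0.23, adjusted p = 0.023) or Col-0 sorbitol replicate 2 (0.23, adjusted p = 0.0292), and stood at 0.105 (adjusted p = 0.429) without Col-0 6 h mock replicate 2. In the 15 min experiment CORI3 stood at 19.9 and 15.6 CPM in the Col-0 mock, 13.4 and 16.7 in the seu-6 mock, 32.3 and 32.7 in Col-0 with NaCl, and 18.8 and 18.4 in seu-6 with NaCl. The Col-0 NaCl libraries lay above the rest, and the mocks of the genotypes overlapped. NaCl raised CORI3 by 0.88 ± 0.096 on the log2 scale in Col-0 (edgeR adjusted p = 1.08e-12). In seu-6 the change was 0.29 ± 0.1 (edgeR adjusted p = 0.0222), which was not called by DESeq2 (adjusted p = 0.0668), nor without seu-6 15 min mock replicate 1 (0.14, adjusted p = 0.469) or seu-6 NaCl replicate 1 (0.27, adjusted p = 0.0701), and stood at 0.45 without seu-6 15 min mock replicate 2. The difference between the responses was -0.59 ± 0.14 (edgeR adjusted p = 0.00181), and it was lost without Col-0 15 min mock replicate 2 (-0.42, adjusted p = 0.0819) or seu-6 15 min mock replicate 2 (-0.43, adjusted p = 0.121). Between genotypes CORI3 was lower in seu-6 by -0.83 ± 0.096 under NaCl (edgeR adjusted p = 1.06e-11), -0.86 ± 0.053 in the 6 h mock (edgeR adjusted p = 7.47e-21) and -0.69 ± 0.04 under sorbitol (edgeR adjusted p = 2.34e-22), values that kept their call with each library left out. In the 15 min mock it was -0.24 ± 0.1 (edgeR adjusted p = 0.0707), and with a library left out it ran from -0.41 to -0.065, with adjusted p between 0.00562 and 0.791. It passed without Col-0 15 min mock replicate 2 or seu-6 15 min mock replicate 2 (-0.41 and -0.40), without either seu-6 NaCl library (adjusted p = 0.0469 and 0.0492) and without the filter on low counts (adjusted p = 0.0473), and was nearest 0 without Col-0 15 min mock replicate 1.

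PDF1.2, a plant defensin gene at chr5:17906968-17907638 on the minus strand, was low in every library and moved apart in the genotypes under NaCl. Its counts were 192 and 165 in the Col-0 15 min mock, 183 and 124 in the seu-6 mock, 121 and 94 in Col-0 with NaCl, and 201 and 251 in seu-6 with NaCl, which correspond to 4.83 and 4.07 CPM, 4.73 and 3.36 CPM, 2.84 and 2.32 CPM, and 5.18 and 6.38 CPM. The mocks overlapped, the Col-0 NaCl libraries lay below them and the seu-6 NaCl libraries above. The log2 change with NaCl was -0.78 ± 0.22 in Col-0 (edgeR adjusted p = 0.00303) and 0.50 ± 0.21 in seu-6 (edgeR adjusted p = 0.0667). The first was lost without Col-0 15 min mock replicate 1 (-0.68, adjusted p = 0.0535) or Col-0 NaCl replicate 2 (-0.67, adjusted p = 0.0596), and the second depended on the library left out. It passed without seu-6 15 min mock replicate 1 (0.77, adjusted p = 0.0292) or seu-6 NaCl replicate 1 (0.64, adjusted p = 0.0459), and was 0.27 without seu-6 15 min mock replicate 2, where the adjusted p reached its highest value of 0.492. The difference between the responses was 1.28 ± 0.3 (edgeR adjusted p = 0.00198) and the genotype difference under NaCl was 1.14 ± 0.22 (edgeR adjusted p = 1.16e-05), and both kept their call with each library left out and with the close copies PDF1.2b and PDF1.2c summed in. At 6 h the counts were 41 and 40 in the Col-0 mock, 9 and 24 in the seu-6 mock, 28 and 40 in Col-0 with sorbitol, and 17 and 21 in seu-6 with sorbitol. The seu-6 libraries lay below those of Col-0 in both media, with a log2 difference of -1.24 ± 0.5 in the mock (edgeR adjusted p = 0.0557). That difference did not hold a steady size. It was -2.10 (adjusted p = 0.0212) without seu-6 6 h mock replicate 2, -0.71 (adjusted p = 0.444) without seu-6 6 h mock replicate 1 and -0.27 (adjusted p = 0.525) with the close copies summed in, and in a fit of all 16 libraries it passed at the same size (adjusted p = 0.00928). Neither sorbitol response of PDF1.2 alone passed, at -0.14 ± 0.46 in Col-0 (edgeR adjusted p = 0.803) and 0.28 ± 0.54 in seu-6 (edgeR adjusted p = 0.679). With its copies summed in, the change with sorbitol was -0.88 in Col-0 (adjusted p = 0.00757) and -0.64 in seu-6 (adjusted p = 0.0589). PDF1.2b alone went from 56 and 36 counts in the Col-0 mock to 10 and 2 with sorbitol. The coding sequence of PDF1.2 was identical to that of PDF1.2b at 93.8% and to that of PDF1.2c at 93.4% of positions. Of 481 stretches of 50 bases in the PDF1.2 transcript, 0 were also in that of PDF1.2b and 3 in that of PDF1.2c. Of 381 stretches of 100 bases none was in either. Read length is not given in the sources used here, so the division of reads among the 3 genes is uncertain to that extent. PDF1.3, named below, was neither compared with PDF1.2 in sequence nor added to the sum.

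THI2.1, a thionin gene of the same branch at chr1:27198356-27199468 on the minus strand, was at the edge of detection. Its counts were 1 and 1 in the Col-0 15 min mock, 12 and 4 in the seu-6 mock, 3 and 2 in Col-0 with NaCl, and 5 and 17 in seu-6 with NaCl. At 6 h they were 1 and 6 in the Col-0 mock, 0 and 1 in the seu-6 mock, 14 and 6 in Col-0 with sorbitol, and 5 and 4 in seu-6 with sorbitol. The seu-6 libraries lay above those of Col-0 in the 15 min experiment and not in the other. Of the fits of the separate experiments it passed the filter on low counts in the 15 min one only, with edgeR adjusted p between 0.134 and 0.905. The lowest belonged to the genotype difference in the mock, 2.93 ± 1.4, which was not detectable at this depth with 2 libraries per group. The related THI2.2, whose coding sequence was identical at 68.8% of aligned positions, had between 80 and 352 counts.

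Counted over the members and set beside the share of all genes called, the calls were as follows. With NaCl in Col-0, 2 of 7 tested members were higher and 2 lower, where 15.8% of all genes tested were called higher and 17.6% lower. With NaCl in seu-6, 1 was higher and 2 lower (12% and 17.9% of all genes). In the NaCl interaction, which is the seu-6 response minus that of Col-0, PDF1.2 was higher and VSP2 and CORI3 were lower, so 1 and 2 of 7, where the shares of all genes were 2.59% and 4.59%. With sorbitol in Col-0, 4 of 6 were higher and 1 lower (31.3% and 31.2% of all genes), and in seu-6 4 of 6 were higher (28.9% of all genes, with 29% lower). For the sorbitol interaction MYC3 alone was called, as lower, where 5.62% of all genes were higher and 7.38% lower. Between genotypes, 1 of 7 was higher in seu-6 and 1 lower in the 15 min mock (14% and 12.9% of all genes), and 1 was higher and 3 lower under NaCl (13.6% and 16.1%). In the 6 h mock 3 of 6 were higher and 2 lower (16% and 11.8% of all genes), and under sorbitol 1 was higher and 1 lower (17.5% and 17.4%). The median log2 change over all genes lay between -0.038 and 0.008 in the 12 comparisons. Comparisons of a genotype's treatment, of the genotypes and of their interaction share libraries and are not independent of each other.

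**Figure D4:**
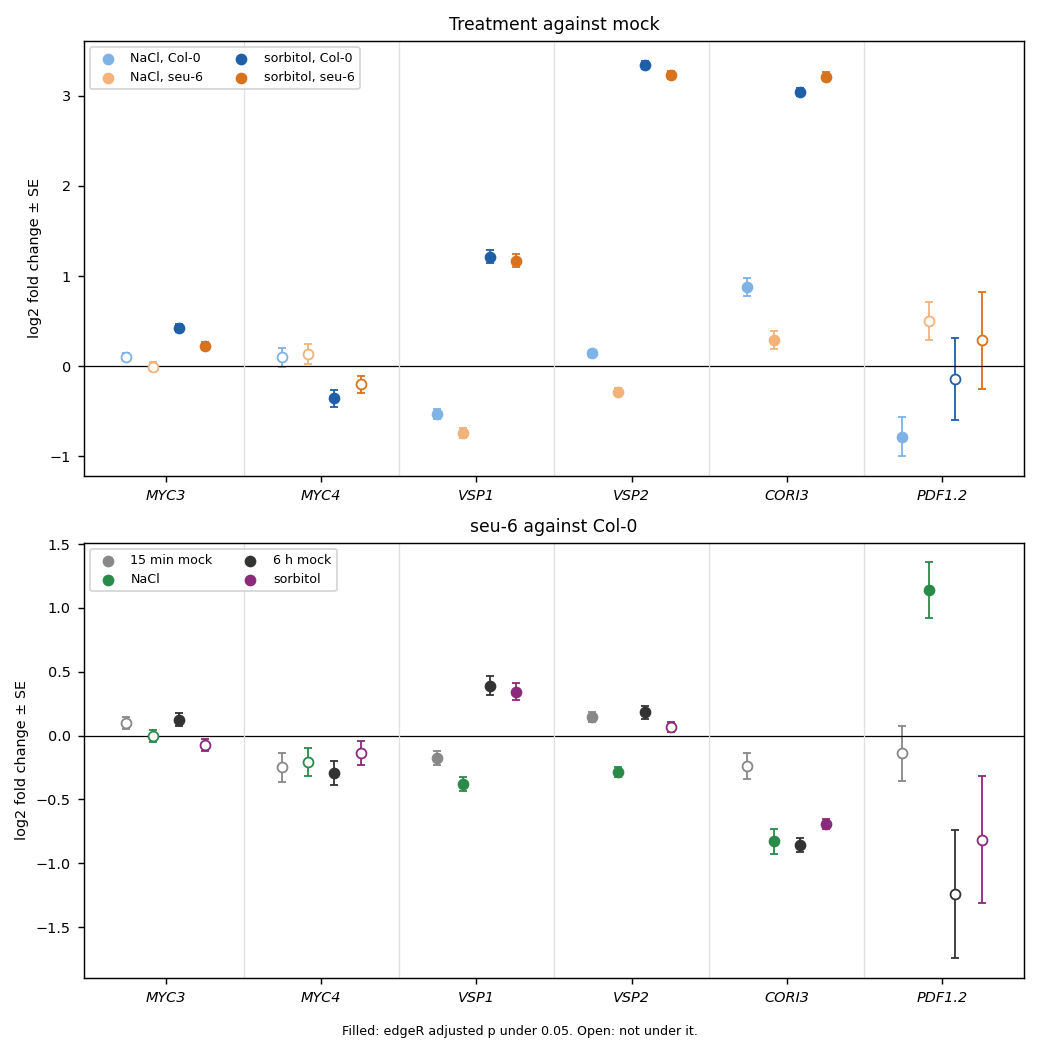
Log2 fold change ± SE of the 6 members tested in both experiments, above for each treatment against its mock in each genotype and below for seu-6 against Col-0 in each medium; filled points have an edgeR adjusted p under 0.05. The sorbitol rises of VSP2 and CORI3 lie between 3.05 and 3.35, and the CORI3 points of seu-6 against Col-0 all lie below 0.

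Most members differed between the mocks of the experiments, and so did most of all genes tested. Of these, 30.5% were higher and 32.1% lower in the 15 min mock of Col-0, and 29.2% and 31.1% in that of seu-6. These mocks differ in seedling age and in time in liquid medium, and these and any difference in handling cannot be told apart. In the 16-library fit, the 15 min mock of Col-0 was above its 6 h mock by a log2 difference of 2.22 ± 0.067 for VSP1 (edgeR adjusted p = 4.43e-39), 2.36 ± 0.046 for VSP2 (edgeR adjusted p = 9.39e-50), 2.30 ± 0.29 for PDF1.2 (edgeR adjusted p = 2.92e-10) and 0.39 ± 0.048 for MYC3 (edgeR adjusted p = 1.26e-10). CORI3, of the same branch as the VSP genes, was lower in the 15 min mock, by -1.02 ± 0.084 (edgeR adjusted p = 1.29e-10), and MYC4 by -0.31 ± 0.1 (edgeR adjusted p = 0.00543). In Col-0, 4 of 7 members were higher and 2 lower in the 15 min mock (30.5% and 32.1% of all genes), and in seu-6 5 were higher and 2 lower (29.2% and 31.1%). The seu-6 values were 1.66 for VSP1, 2.32 for VSP2, 3.40 for PDF1.2, 0.37 for MYC3, -0.40 for CORI3 and -0.27 for MYC4. The value of CORI3 in seu-6 fell to -0.21 (adjusted p = 0.0511) without seu-6 15 min mock replicate 1, and that of PDF1.2 was 1.76 with its copies summed in. The MYC4 call in Col-0 was lost without Col-0 15 min mock replicate 2 (-0.23, adjusted p = 0.105) or Col-0 6 h mock replicate 1 (-0.24, adjusted p = 0.0983). In seu-6, with an edgeR adjusted p of 0.0226, it was lost in 14 of 16 fits with a library left out, with adjusted p up to 0.157. There it was also lost with DESeq2 (adjusted p = 0.066), with DESeq2 size factors (0.0545), without the filter on low counts (0.0832) and in the mocks of seu-6 alone (0.0515). The THI2.1 call there, 3.87 (edgeR adjusted p = 0.0241), was lost without any of 3 seu-6 mock libraries.

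Other jasmonate genes, from lists chosen by role, behaved as follows under NaCl. The counts are to be read beside the shares of all genes tested, which were 15.8% higher and 17.6% lower in Col-0, 12% and 17.9% in seu-6, and 2.59% and 4.59% for the interaction. Genes of jasmonate turnover, whose products oxidise or otherwise inactivate the hormone, numbered 7 higher and 2 lower of 10 in Col-0, with a median of 0.80, and higher in 1 and lower in 7 in seu-6, with a median of -0.87. The jasmonate oxidase genes JOX2 (0.94 in Col-0 and -1.08 in seu-6) and JOX4 (2.21 and -0.89) rose in one genotype and fell in the other. CYP94C1 (-1.02 in Col-0 and -2.47 in seu-6) and CYP94B3 (-0.91 and -1.34) of the same list fell in both. In all, 9 of the 10 genes had a lower response in seu-6, with a median of -1.56. A lower response means a seu-6 change minus that of Col-0 called below 0, so it can be a larger fall. Among 14 synthesis genes 5 were higher and 6 lower in Col-0, with a median of -0.04, and 0 were higher and 11 lower in seu-6, with a median of -0.44. Of the 14, 9 had a lower response in seu-6, with a median of -0.51, among them LOX2, a lipoxygenase gene, at 0.75 in Col-0 and -0.09 in seu-6. In the list of the receptor, the JAZ repressors and their partners 10 of 17 fell in Col-0 and 11 in seu-6, and 8 had a lower response in seu-6. JAZ10 fell further in seu-6 (-0.48 in Col-0 and -1.75 in seu-6), with a difference of -1.26 (edgeR adjusted p = 2.42e-22). Of 8 other outputs of the MYC branch 5 were higher in Col-0, while in seu-6 2 were higher and 2 lower, and 3 had a lower response in seu-6. TAT3, a tyrosine aminotransferase gene, was the clearest of these 3, with a difference of -0.91 (edgeR adjusted p = 4.31e-20), and NAC019, which encodes a NAC factor acting downstream of MYC2, had -0.59 (edgeR adjusted p = 0.0183). The third, JAL35, has 23.78% of its exon bases under an opposite-strand gene. In the ERF branch 2 of 11 were higher and 6 lower in Col-0, and 1 was higher and 4 lower in seu-6. The seu-6 change minus that of Col-0 was called above 0 for 3 of them, as for PDF1.2. These were ERF2 with 0.38 (edgeR adjusted p = 3.79e-05), PDF1.3 with 0.94 (edgeR adjusted p = 0.0209) and HEL with 0.16 (edgeR adjusted p = 0.0128). ERF2 itself fell in both genotypes (-1.02 in Col-0 and -0.64 in seu-6), and so did ERF1 (-1.576 and -1.925). Of the MYC relatives, the repressor genes JAM1 and JAM2 fell in both genotypes.

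Under sorbitol and between genotypes in the mocks the counts of the same lists were as follows. Of all genes tested, 31.3% were higher and 31.2% lower with sorbitol in Col-0, 28.9% and 29% in seu-6, and 5.62% and 7.38% in the interaction. With sorbitol 7 of 8 other MYC outputs were higher and 1 lower in Col-0, with a median of 1.59, and 6 were higher and 1 lower in seu-6, with a median of 1.23. NAC019 rose by 5.0 in Col-0 and 3.06 in seu-6 on the log2 scale, a difference of -1.94 (edgeR adjusted p = 1.28e-17). Synthesis genes were higher in 11 of 14 cases in Col-0 and in 12 in seu-6, led by LOX2 with 2.44 and 2.70. Turnover genes were higher in 8 of 10 cases and lower in 1 in Col-0, and higher in 6 and lower in 3 in seu-6. In the ERF branch 6 of 12 were higher and 4 lower in Col-0, and 7 and 2 in seu-6. Its interaction held 1 higher and 1 lower. Of 5 MYC relatives 3 were higher in Col-0 and 4 in seu-6, with 0 lower, and none was called in the interaction. The JAZ list had 7 of 17 higher and 2 lower in Col-0, and 5 and 6 in seu-6. In the JAZ list 9 of 17 had a lower response to sorbitol in seu-6, and in the turnover list 5 of 10 did, CYP94B3 by -2.34 (edgeR adjusted p = 3.22e-18). In the 6 h mock 10 of 17 JAZ list genes and 8 of 10 turnover genes were higher in seu-6, with medians of 0.42 and 0.88, where 16% of all genes were higher and 11.8% lower. Of the other MYC outputs 4 were higher there and 2 lower, with TAT3 at 3.10 (edgeR adjusted p = 1.69e-30) and NAC055 at 0.92 (edgeR adjusted p = 4.96e-07), beside a CORI3 value of -0.86. In the 15 min mock 11 of 17 JAZ list genes and 6 of 10 turnover genes were lower in seu-6, where 14% of all genes were higher and 12.9% lower. Synthesis genes were higher in seu-6 in 11 of 14 cases and lower in 2 in the 6 h mock. In the 15 min mock 4 were higher and 8 lower. In the ERF branch 3 of 12 were higher and 3 lower in the 6 h mock, and 2 of 11 and 3 in the 15 min mock. Of the other MYC outputs 4 of 8 were higher and 3 lower in the 15 min mock. MYC relatives were lower in 1 of 5 cases in the 6 h mock and in 2 of 4 in the 15 min mock, with 0 higher. Between the mocks of Col-0 8 of 8 other MYC outputs were higher at 15 min, with a median of 1.70, and in seu-6 8 of 8, with a median of 0.85, where 30.5% and 29.2% of all genes were higher. The other lists leaned the same way. In Col-0 the JAZ list had 11 of 17 higher and 5 lower (median 2.45), and synthesis 12 of 14 and 1 (1.77). Turnover had 6 of 10 and 2 (1.18), the ERF branch 9 of 12 and 0 (1.11), and MYC relatives 2 of 5 and 1 (0.59). In seu-6 these medians were 1.49, 1.93, 0.66, 0.57 and 0.56, in that order. Each NaCl change is read against this 15 min mock.

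**Figure D5:**
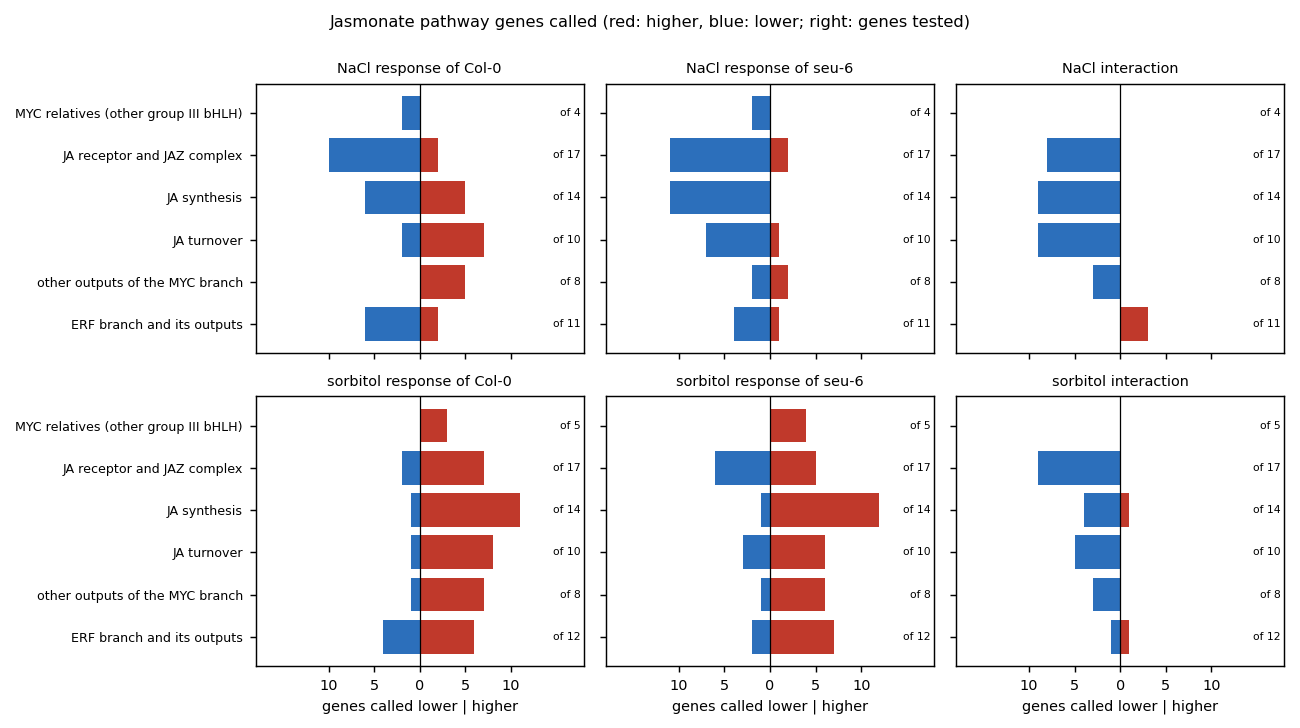
Number of genes called lower (blue, to the left) and higher (red, to the right) by edgeR at an adjusted p under 0.05 in 6 lists of jasmonate genes, for each treatment in each genotype and for the interaction, with the number of genes tested at the right of each bar. In the NaCl interaction 9 of 10 turnover genes and 9 of 14 synthesis genes lie on the lower side, and 3 of 11 genes of the ERF branch on the higher side, where 4.59% of all genes were lower and 2.59% higher.

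The members did not share one pattern across the 16 libraries. Pearson's r of log2(CPM + 1) was 0.76 for VSP1 with VSP2, 0.51 for VSP2 with CORI3 and -0.11 for VSP1 with CORI3, and MYC3 had 0.82 with VSP1 and -0.64 with MYC4. PDF1.2 had -0.61 with CORI3. These are descriptions over 16 libraries in 8 groups, which share genotype, age and treatment, and depth differed little. Among 16386 genes compared, the closest in pattern was SCL14 for MYC3 (r = 0.968), BEE1 for MYC4 (0.943), WRKY30 for VSP1 (0.993), LEA14 for VSP2 (0.985), MGL for CORI3 (0.992) and AT1G56500 for PDF1.2 (0.977). No pair of members was among the 3 closest genes of each other.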

How the data were processed

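The values were raw counts per gene, 1 table per library, as deposited by the authors. The tools named per the submitters' processing notes are HISAT2 2.2.1 (alignment), HTSeq 0.13.5 (counting) and DESeq2, with the build TAIR10. Annotation release, strand setting, read filters and read length: not given in the sources used here. The 5 summary lines of each table stayed out of library sizes and tests; they hold between 8.78% and 12.7% of reads, and those assigned to no single gene make up between 3.54% and 4.44%.

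The 8 libraries of each experiment were fitted together in R 4.3.3 with edgeR 4.0.16 (quasi-likelihood F test, robust fit, TMM, filterByExpr, 1 mean per group, 4 residual degrees of freedom), and the mocks were compared in a fit of all 16 libraries. A gene was called at a Benjamini-Hochberg adjusted p under 0.05 over all genes tested. The standard error of a log2 change was its size over the square root of F, and it borrows the spread of other groups and genes. CPM use TMM scaling. The fit was tested on simulated counts.

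The members, lists, tests and alternatives were chosen with earlier results of these data known. All 8 members were open to naming in every comparison, and some of their values that did not pass are not printed. Of each list at most the 3 genes of smallest adjusted p in a comparison are named, and PDF1.2b and THI2.2 are named as close copies. Likeness used log2(CPM + 1) over genes whose average log2 CPM was 2 or more. Sequences, symbols and overlaps come from RefSeq's TAIR10.1, in which 32548 of the 32833 loci were found. Alternatives were DESeq2 1.42.0, its size factors, no filter, a replicate block, close copies summed, another choice of libraries in the fit, raw library totals for CPM, and leaving out each library, where a lone library is taken to vary like the rest. The labels' replicates may share a culture, in which case p-values measure only the spread between these libraries.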

Additional observations from a re-analysis of the deposited data

Results flagged for a closer look

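In 4 cases the test of the difference between the genotypes' responses was passed by a member, of 7 tested for NaCl and 6 for sorbitol. Of all genes tested, 2.59% were higher and 4.59% lower in the NaCl interaction, and 5.62% and 7.38% in the sorbitol interaction. VSP2 fell with NaCl in seu-6 and was called higher in Col-0 (0.142), a call lost without either of 2 libraries and turned to -0.089 with VSP1 and VSP2 summed. Its difference (seu-6 minus Col-0) was -0.428 ± 0.057 on the log2 scale (edgeR adjusted p = 9.18e-09). For CORI3 the NaCl response differed by -0.589 ± 0.14 (edgeR adjusted p = 0.00181), and for PDF1.2 by 1.278 ± 0.3 (edgeR adjusted p = 0.00198). For MYC3 the sorbitol response differed by -0.197 ± 0.067 (edgeR adjusted p = 0.0409). With each library left out in turn the differences of VSP2 and PDF1.2 kept the call, that of CORI3 lost it in 2 cases of 8 and MYC3 in 5 of 8. Groups of 2 libraries allow no test for a library that stands apart from its group.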

How the results depend on the processing

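Of the member changes refitted with 1 library left out, 666 kept direction and call, 48 lost a call, 12 gained one and 18 crossed 0; counts limit THI2.1 most, at 0 to 17 per library. DESeq2 called 0 members in the sorbitol interaction (edgeR called MYC3; its DESeq2 adjusted p was 0.0982). With close copies summed, so that VSP1 and VSP2 hold the same sum, 0 members were called between genotypes in the 15 min mock and 3 in the sorbitol interaction, VSP2 changed by -0.089 with NaCl in Col-0, VSP1 differed by 0.027 between genotypes in the 15 min mock, and PDF1.2 changed by -0.644 with sorbitol in seu-6. These turns follow from adding VSP1 to VSP2, and for PDF1.2 from adding its copies. The MYC3 change with NaCl in seu-6, near 0, turned to 0.006 with DESeq2 and with its size factors, 0.005 without the filter and 0.012 in the 16-library fit, and its genotype difference under NaCl to 0.005, 0.005, 0.016 and 0.016. With each library left out, the members called ranged from 2 to 4 for NaCl in Col-0, 1 to 3 between genotypes in the 15 min mock, 3 to 5 in the 6 h mock, 0 to 2 for the sorbitol interaction and 4 to 7 between the mocks of seu-6, and for the NaCl interaction from 2 to 4. Uncalled changes that crossed 0 ranged for MYC3 from -0.026 to 0.014 (NaCl in seu-6) and from -0.018 to 0.05 (genotypes under NaCl), for MYC4 from -0.034 to 0.113 (NaCl interaction), for VSP1 from -0.124 to 0.048 (sorbitol interaction), for THI2.1 from -0.708 to 1.331 (NaCl in seu-6), -1.881 to 0.159 (NaCl interaction) and -2.311 to 0.179 (mocks of Col-0), and for PDF1.2 from -0.409 to 0.087 (genotypes, 15 min mock), -0.411 to 0.079 and -0.251 to 1.142 (sorbitol in Col-0 and seu-6) and -0.107 to 1.287 (sorbitol interaction). Raw library totals in place of TMM moved group mean CPM by between -8.17% and 8.8%, by more than the replicate SD in 23 of 56 cases. Same-numbered libraries did not deviate together (correlations between -0.028 and 0.033). That shows no shared shift by replicate number, but cannot tell whether same-numbered libraries were grown or handled together. With the replicate number as a block, 79 of 79 member changes kept direction and call, for example VSP2 with NaCl in Col-0 at 0.142 (adjusted p = 0.00374). The cause was not tested where none is given.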
